A study of Mus musculus with 24 samples.

Results

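Cholesterol synthesis, uptake and efflux were followed through 32 genes chosen by symbol for their known place in the pathway, of the 23420 gene symbols counted in each library. All 32 were found, 31 under their current symbol and Msmo1 under its older symbol Sc4mol. They comprised 18 synthesis enzymes, 6 genes of the sterol regulatory element-binding proteins (SREBPs) and their control, and 2 genes that modify sterols. The last 6 were genes of the liver X receptors (LXRs) and of sterol efflux and uptake. The SREBP control genes were Srebf1 and Srebf2, which encode SREBPs, Scap, Insig1, Insig2 and the sterol carrier Stard4. The synthesis genes and the LXR and efflux genes are described apart throughout.

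Polyadenylated RNA was sequenced from Th2 cells and bone marrow-derived macrophages (BMDMs) of C57BL/6 mice of 8 to 16 weeks, in 24 libraries and 10 groups. The Tdg mice were Tdg fl/fl and the Tet mice carried floxed Tet1, Tet2 and Tet3. TDG iKO and TET iTKO animals also carried CreERT2, a recombinase activated by tamoxifen, inserted at the Ndor1 locus, and the WT animals lacked it. They carried a reporter of Cre activity as well, GFP with TDG iKO and YFP with TET iTKO. Naive T cells of reporter mice were sorted for the reporter. Whether the WT animals carried a reporter was not stated. Tamoxifen was given to Cre-carrying and WT mice alike, so all groups share that exposure. Th2 cells were naive CD4 T cells of spleen and lymph nodes, activated through CD3 and CD28 with IL-4 and an antibody to IFN-γ and then grown in IL-2 (4 TDG iKO and 4 WT libraries). BMDMs came from 2 cohorts, the Tdg cohort with TDG iKO and WT animals and the Tet cohort with TET iTKO and WT animals. They were taken unstimulated (0 h) or after 6 h with Kdo2-lipid A (KLA), an agonist of Toll-like receptor 4, with 2 libraries for each genotype and time.

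Cells make cholesterol from acetyl-CoA through mevalonate, isoprenoids, squalene and lanosterol. When sterols are scarce, Scap escorts the SREBPs from the endoplasmic reticulum and the processed SREBPs switch on the synthesis enzymes, whereas Insig proteins hold the complex back when sterols are plentiful. LXRs are nuclear receptors that oxysterols activate, and they induce transporters that export cholesterol, apolipoprotein E and the ligase Mylip, which marks lipoprotein receptors for degradation. Macrophages are known for LXR-driven cholesterol efflux and dividing lymphocytes for cholesterol synthesis.

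The stretch just before the transcription start is shown for 8 of the genes, to set synthesis and SREBP control genes beside efflux or modifying genes. Windows from 250 bases before to 50 after the start came from RefSeq (build GRCm38.p6) and were found for 27 of the 32 genes. Each line gives 180 bases 5′ to 3′ on the strand of the gene. Capitals mark CCAAT or its reverse complement ATTGG, the E-box CACGTG, or the SREBP-type letters TCACNCCAC.
Hmgcs1 (chr13:119690171-119690350, plus strand): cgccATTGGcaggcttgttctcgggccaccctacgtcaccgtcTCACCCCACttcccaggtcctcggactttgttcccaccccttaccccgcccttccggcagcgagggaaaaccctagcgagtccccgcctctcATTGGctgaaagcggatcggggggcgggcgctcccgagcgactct
Mvd (chr8:122443423-122443602, minus strand): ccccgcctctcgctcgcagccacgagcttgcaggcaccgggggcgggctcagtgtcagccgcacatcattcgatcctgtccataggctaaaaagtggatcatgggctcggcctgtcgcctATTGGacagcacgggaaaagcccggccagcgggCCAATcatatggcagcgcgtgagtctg
Lss (chr10:76531425-76531604, plus strand): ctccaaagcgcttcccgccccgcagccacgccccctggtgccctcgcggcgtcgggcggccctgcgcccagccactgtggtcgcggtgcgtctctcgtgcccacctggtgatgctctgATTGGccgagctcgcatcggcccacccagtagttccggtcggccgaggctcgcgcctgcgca
Msmo1 (chr8:64733579-64733758, minus strand): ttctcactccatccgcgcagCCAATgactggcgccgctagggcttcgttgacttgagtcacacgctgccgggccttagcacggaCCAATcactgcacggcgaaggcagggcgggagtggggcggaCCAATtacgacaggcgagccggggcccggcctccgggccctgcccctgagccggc
Insig1 (chr5:28071232-28071411, plus strand): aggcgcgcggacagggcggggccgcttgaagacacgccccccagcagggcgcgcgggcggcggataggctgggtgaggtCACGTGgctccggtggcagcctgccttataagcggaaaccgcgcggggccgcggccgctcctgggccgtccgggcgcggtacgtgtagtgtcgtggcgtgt
Abca1 (chr4:53159896-53160075, minus strand): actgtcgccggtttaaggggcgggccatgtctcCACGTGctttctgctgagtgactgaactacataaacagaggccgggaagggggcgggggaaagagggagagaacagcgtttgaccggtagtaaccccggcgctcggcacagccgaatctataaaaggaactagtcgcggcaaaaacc
Mylip (chr13:45389562-45389741, plus strand): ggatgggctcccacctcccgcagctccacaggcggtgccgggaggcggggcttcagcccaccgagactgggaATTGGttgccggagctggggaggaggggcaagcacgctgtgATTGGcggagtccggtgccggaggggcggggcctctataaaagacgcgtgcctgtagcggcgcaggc
Ch25h (chr19:34475149-34475328, minus strand): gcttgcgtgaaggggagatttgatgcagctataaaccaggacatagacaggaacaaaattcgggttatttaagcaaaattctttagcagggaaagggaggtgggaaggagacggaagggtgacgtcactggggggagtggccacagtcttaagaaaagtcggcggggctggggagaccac

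In the full windows, CCAAT stood on either strand in 14 of the 15 synthesis genes with a window (93.3%), the exception being Acat2, against 41.1% of 27025 genes. It was present in 4 of 5 SREBP control genes, in 1 of 5 LXR and efflux genes (Mylip) and in 1 of the 2 sterol-modifying genes (Soat1). The letters TCACNCCAC were found in Hmgcs1 alone among the members (3.7%, against 1.44% of all genes). The E-box was found in 6 of 27 members (22.2% against 8.09%), namely Hsd17b7, Dhcr7, Sc5d, Insig1, Scap and Abca1. The exact letters AGGTCA of the LXR half-site stood in 3 of 27 members (11.1% against 18.1%) and in none of the 5 LXR and efflux genes. Looser forms of this half-site were not searched, so the count does not show that these genes lack an LXR site. These matches describe letters in these windows only.

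Assigned read pairs per library ranged from 4982950 to 26657729, and the 32 genes took 0.286 to 0.354% of the counts in Th2 libraries, 1.07 to 1.31% in BMDMs of the Tet cohort and 0.5 to 0.742% in those of the Tdg cohort. Replicates 3 and 4 of the Th2 cells differed from each other by little more than sampling noise (mean chi-square per gene 1.51 for WT and 1.34 for TDG iKO, where other Th2 pairs gave 21.3 to 218), so they were summed and counted as 1 sample, giving n = 3 per genotype. Replicate 2 of the 0 h WT macrophages of the Tdg cohort was the shallowest library and stood apart from its partner (mean chi-square per gene 80.6). The other pairs of the Tdg cohort also stood apart (63.8 and 69.0 in TDG iKO at 0 h and 6 h, 37.4 in WT at 6 h). Pairs of the Tet cohort gave 10.9 to 25.2. The 7 macrophage markers summed to 25195 to 39118 TPM (transcripts scaled to a common total after division by length) in BMDMs and to 9.86 to 44.98 TPM in Th2 libraries, where Csf1r and Mertk were at 0. The 8 T cell markers summed to 2826 to 4324 TPM in Th2 libraries and to 5.75 to 19.3 TPM in BMDMs. Tdg itself had 0 to 7 counts in every library, WT included, and so did not check the labels. Counts per gene do not resolve deleted exons, and Tet2 and Tet3 were not lower in TET iTKO macrophages at 0 h. Ndor1, the site of the Cre insertion, was lower there (295 and 269.7 normalised counts against 431 and 493 in WT). In Th2 cells it had 205, 277 and 459 in TDG iKO against 724, 564 and 1129 in WT. In BMDMs of the Tdg cohort at 0 h it had 132 and 233 in TDG iKO against 274 and 239 in WT. It thus hardly separated the genotypes in replicate 2 there. At 6 h the values were 143 and 203 against 271 and 350.

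The summed levels of the synthesis and the efflux genes stood in opposite order in the 2 cell types. Levels between genes were compared as TPM, which divides by transcript length. Summed over the 17 synthesis genes with an annotated length, the level was 1718 ± 207 TPM (SD, n = 3) in WT Th2 cells, 326 ± 73.9 TPM (n = 2) in unstimulated WT BMDMs of the Tdg cohort and 271 ± 3.32 TPM (n = 2) in those of the Tet cohort. The 6 LXR and efflux genes summed to 139 ± 45.9 TPM in WT Th2 cells, 8903 ± 1049 TPM in WT BMDMs of the Tdg cohort and 18202 ± 440 TPM in those of the Tet cohort. Most of the latter sum was Apoe, at 8579.7 ± 1086 and 17798 ± 422 TPM in turn. The other LXR and efflux genes had means from 26.6 (Mylip) to 169 TPM (Nr1h3) in the Tdg cohort. In the Tet cohort they ran from 53.0 (Nr1h2) to 119 TPM (Nr1h3). In BMDMs of the Tdg cohort the order of the sums thus rested on Apoe.

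Among these 17 synthesis genes Fdps, the synthase of farnesyl diphosphate, had the highest mean level in WT Th2 cells at 459 ± 52.9 TPM. It was followed by Cyp51, the lanosterol demethylase, at 149 ± 38.2 TPM and by Pmvk, a kinase of the mevalonate steps, at 142 ± 37.5 TPM. The spreads of Cyp51 and Pmvk overlapped. The lowest was Hsd17b7, a ketosteroid reductase, at 13.9 ± 2.13 TPM. In unstimulated WT BMDMs the order was another, and the highest levels were those of Msmo1, a methylsterol oxidase, at 63.7 ± 25.8 TPM in Tdg-cohort BMDMs and 68.7 ± 1.36 TPM in the Tet cohort, and Ebp, a sterol isomerase, at 65.4 ± 7.99 and 45.4 ± 0.150 TPM. The lowest mean was that of Idi1, the isomerase that opens the isoprenoid steps, at 2.30 ± 2.90 and 1.57 ± 0.242 TPM, although its spread overlapped that of Acat2 (2.68 ± 1.78 TPM) in the Tdg cohort.

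**Figure D1:**
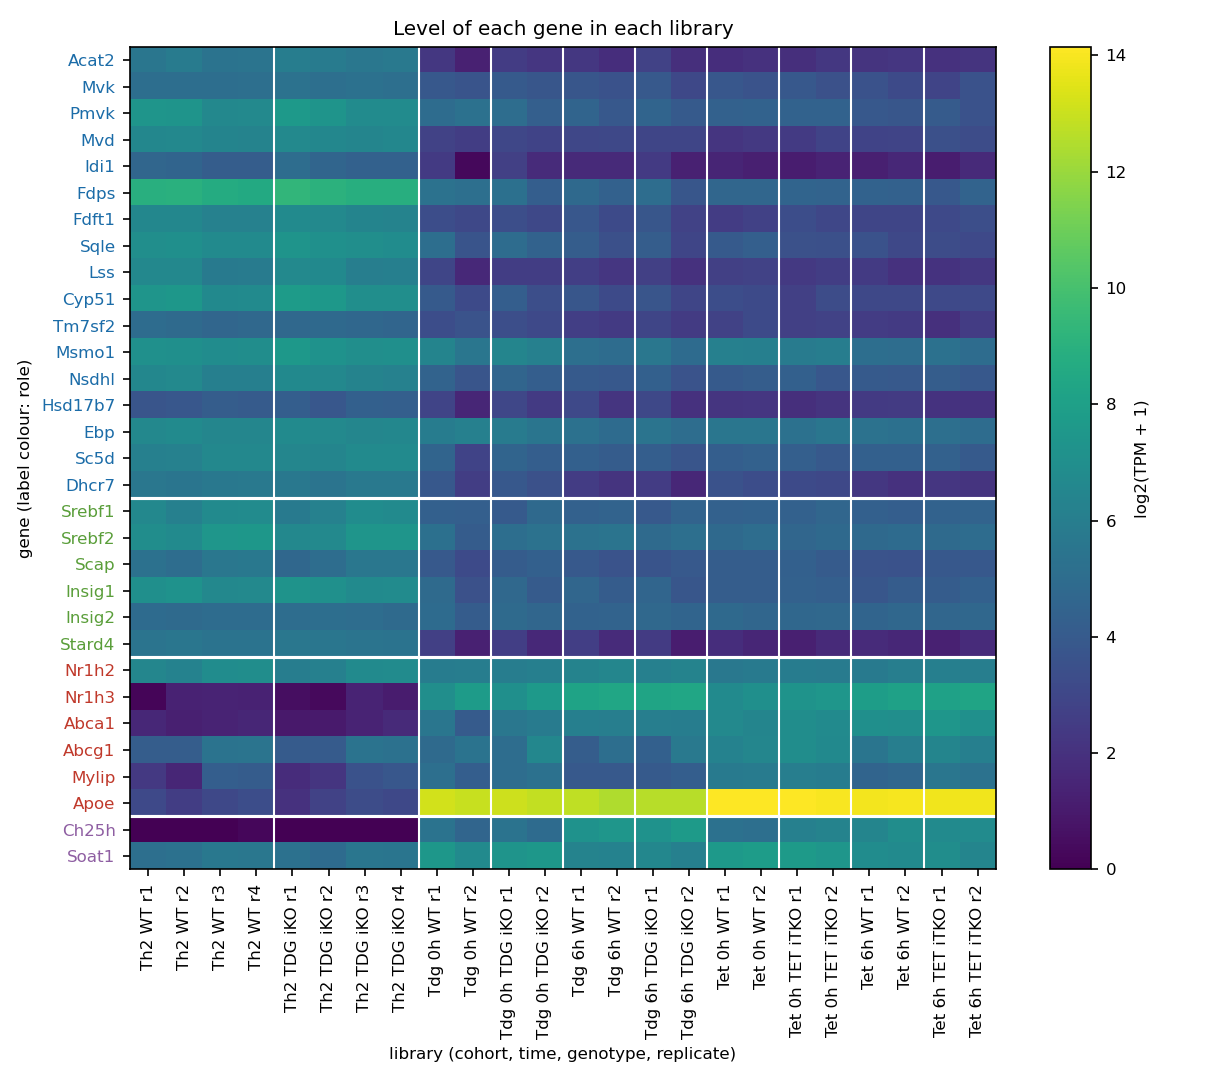
Level of 31 of the 32 genes in each of the 24 libraries, as log2(TPM + 1), with genes in rows coloured by role and libraries in columns set apart by group (Hmgcs1 had no annotated length and is left out). Synthesis rows are brighter in the 8 Th2 columns, and Apoe, Abca1, Nr1h3 and Ch25h are brighter in the 16 macrophage columns.

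WT Th2 cells were compared with unstimulated WT BMDMs (n = 3 against n = 4, 2 from each cohort) to place the genes in the 2 cell types. The BMDM cohorts were pooled as a single group, and the model held no term for cohort. The cells differed also in culture, mice and experiment, so the cell type cannot be told apart from these. All but 3 of the 32 genes passed the threshold of an adjusted p below 0.05 (DESeq2), 22 higher and 7 lower in Th2 cells, where 54.8% of all genes tested passed, 29% higher and 25.8% lower. The median log2 fold change was 1.92 over the 18 synthesis genes and -4.20 over the 6 LXR and efflux genes, against 0.13 over all genes (0.03 with TMM scaling factors).

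Of the 18 synthesis genes, 17 were higher in Th2 cells and none was lower. Mvd, which decarboxylates mevalonate diphosphate, had normalised counts of 789.9, 855 and 668 in the Th2 libraries, of 64.4 and 72.5 in the BMDMs of the Tdg cohort and of 38.2 and 44.9 in those of the Tet cohort. The groups lay far apart, and the difference was 14.5-fold (log2 fold change 3.86, SE 0.30, adjusted p = 3.39e-36). Acat2, the thiolase of the first step, had 518, 640.0 and 436 in Th2 cells against 54.1 and 27.2 in Tdg-cohort BMDMs and 37.3 and 42.9 in the Tet cohort (log2 fold change 3.68, SE 0.31, adjusted p = 3.16e-31). Every Th2 library was above every macrophage library for both genes.

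The large differences ran along the whole pathway. In the mevalonate and isoprenoid steps the log2 fold change was 1.79 for Hmgcs1, the synthase of HMG-CoA, 0.99 for the kinase Mvk, 1.88 for Pmvk, 3.08 for Idi1 and 3.45 for Fdps. In the squalene and lanosterol steps it was 3.22 for the squalene synthase Fdft1, 2.22 for the squalene epoxidase Sqle, 3.63 for the lanosterol synthase Lss and 3.46 for Cyp51. In the last steps it was 1.27 for the sterol reductase Tm7sf2, 1.96 for the dehydrogenase Nsdhl, 1.41 for Hsd17b7, 1.86 for the desaturase Sc5d, 1.87 for the final reductase Dhcr7 and 0.53 for Msmo1. Ebp did not pass (log2 fold change 0.31, adjusted p = 0.436, 95% interval -0.34 to 0.96). The call for Msmo1 was lost with edgeR (adjusted p = 0.0961) and without replicate 1 or 2 of the Th2 cells or either BMDM library of the Tet cohort (adjusted p 0.0842 to 0.103).

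Of the 6 SREBP control genes, 5 were higher in Th2 cells: the sterol carrier Stard4 (3.53), Insig1 (2.39), the SREBP genes Srebf2 (1.84) and Srebf1 (1.78), and Scap (1.07), each as a log2 fold change. Insig2, a second Insig protein, did not pass (log2 fold change -0.17, adjusted p = 0.477).

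Of the 6 LXR and efflux genes, 5 were lower in Th2 cells. Apoe, the apolipoprotein that carries exported cholesterol, had normalised counts of 53.8, 33.5 and 54.5 in Th2 libraries against 79049 and 92194 in Tdg-cohort BMDMs and 150639.6 and 155989 in the Tet cohort (log2 fold change -11.29, SE 0.35, adjusted p = 7.7e-220). Nr1h3, which encodes LXRα, had 1.31, 15.4 and 14.8 against 1493 and 3555 and 1324 and 1565 (log2 fold change -7.49, SE 0.56, adjusted p = 3.83e-39). Abca1, a transporter that loads cholesterol onto apolipoproteins, had 99.7, 71.3 and 85.3 against 2902 and 1351 and 6376 and 5456 (log2 fold change -5.56, SE 0.49, adjusted p = 1.7e-28). For all 3 genes the groups were far apart. Mylip was lower (log2 fold change -2.84, adjusted p = 2.06e-05), as was Abcg1, a second transporter (log2 fold change -1.67, adjusted p = 0.00085), although 1 Th2 library of Abcg1 lay within the macrophage range. Nr1h2, which encodes LXRβ, did not pass (log2 fold change 0.26, adjusted p = 0.431, 95% interval -0.28 to 0.80).

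Ch25h, the hydroxylase that makes an oxysterol known to act on both SREBP processing and LXR, had 0 counts in 7 of the 8 Th2 libraries and 3 in the other, and 91 to 2031 in every macrophage library. No fold is given for it, since the Th2 level was at the floor of 3 counts. Soat1, which esterifies cholesterol for storage, was lower in Th2 cells (log2 fold change -2.57, adjusted p = 4.44e-26). Beside these genes, all 12 genes of a fatty acid synthesis list passed, 10 higher in Th2 cells (Scd1 7.95, Fads2 6.19, Scd2 5.75, Elovl6 4.50) and 2 lower. Of 21 genes of other sterol handling, 15 passed, 5 higher (Vldlr 7.96) and 10 lower (Lrp1 -9.85), and Msr1 and Cd36, scavenger receptors of macrophages, were at or near 0 in Th2 cells.

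**Figure D2:**
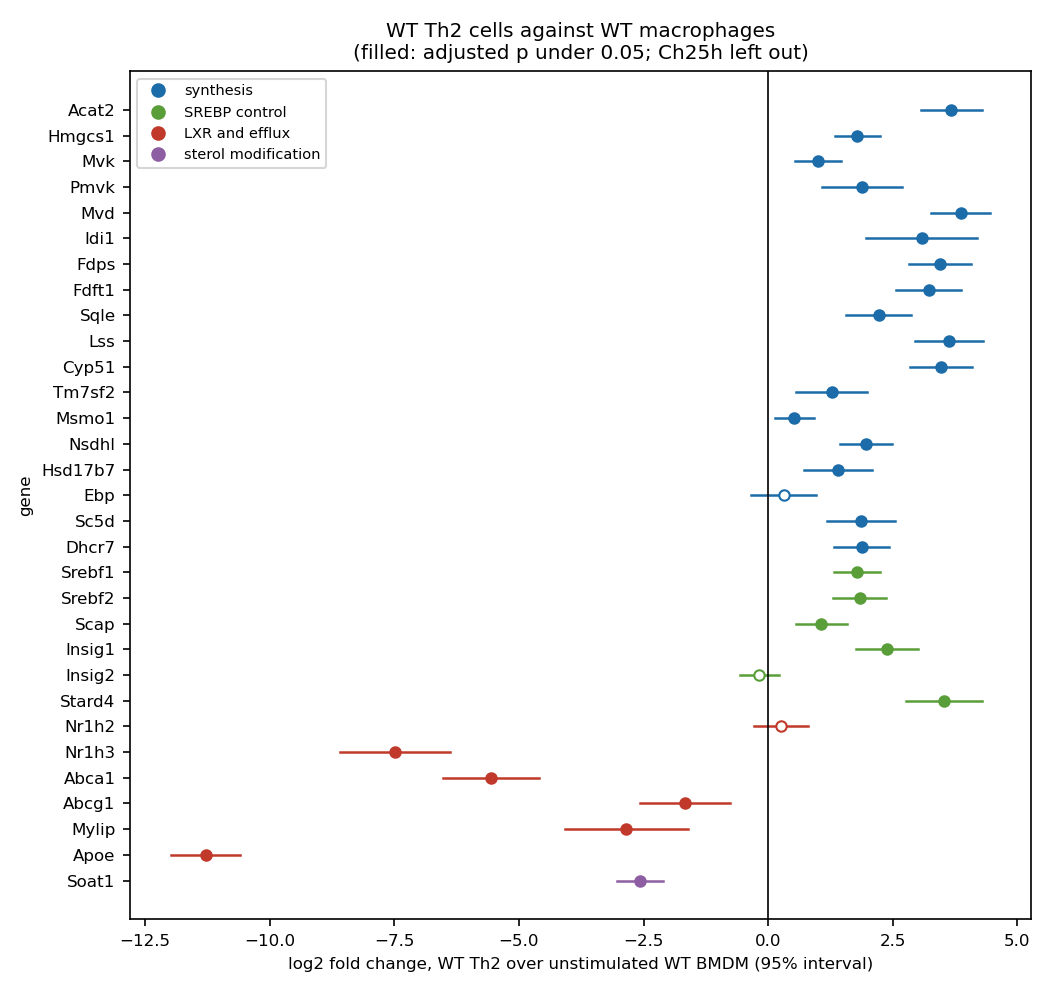
Log2 fold change with its 95% interval (DESeq2) of 31 genes between WT Th2 cells (n = 3) and unstimulated WT macrophages (n = 4), coloured by role, with filled points for an adjusted p below 0.05. Every synthesis gene lies right of 0, and Apoe at -11.29 lies farthest to the left, with Ch25h left out.

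Deletion of Tdg in Th2 cells was compared with WT to ask whether the sterol genes depend on TDG there. None of the 32 genes passed the threshold with DESeq2 or edgeR (0 of 15826 genes over the whole table, 0%), and no member had an unadjusted p below 0.05, against 77 genes in all. The synthesis genes nonetheless lay to one side. Of 18, 17 had a fold change above 0, with a median log2 fold change of 0.23 against -0.01 over all genes, and 13 were higher in TDG iKO in all 3 same-numbered pairs (on the normalised count plus 1), where 17.8% of 9858 genes were. The groups overlapped for 16 of the 18 (they did not overlap for 3.45% of all genes in either direction).

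Hmgcs1 had the smallest p, with normalised counts of 2949, 3096 and 2837 in WT and 5145, 3525 and 3271 in TDG iKO (log2 fold change 0.43, 95% interval -0.03 to 0.89, adjusted p = 1). Its TDG iKO libraries were all above its WT libraries. Fdps had 3767, 3945 and 2939 in WT and 5414, 4366 and 3476 in TDG iKO (log2 fold change 0.32, 95% interval -0.17 to 0.80). Cyp51 had 4115, 4447 and 2480.3 in WT and 5873, 4798 and 2992 in TDG iKO (log2 fold change 0.31, 95% interval -0.38 to 0.99). In both genes the groups overlapped while each pair was higher in TDG iKO.

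The size of the difference rested on the first pair, whose median log2 ratio over the synthesis genes was 0.43, against 0.07 in the second and 0.18 in the summed replicates 3 and 4. Same-numbered Th2 libraries deviated together, and with the replicate number as a block 15 of 10188 genes passed (0.147%), none of them a member, the smallest adjusted p of a member being 0.398 for Hmgcs1. Tm7sf2 was the synthesis gene below 0 (-0.05). All 6 LXR and efflux genes had fold changes below 0, with a median of -0.30, although Nr1h3 had 1 to 36 raw counts per library. The groups overlapped for each of the 6, and only Nr1h2 was lower in TDG iKO in every same-numbered pair. In the second pair Mylip (0.88) and Apoe (0.31) had log2 ratios above 0. The 95% intervals of the synthesis genes reached up to 0.99 (Cyp51), so log2 differences up to that size lay within them. The p-values here, above and below measure the spread between these samples, which may be technical, since separate animals are not stated for every sample.

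**Figure D3:**
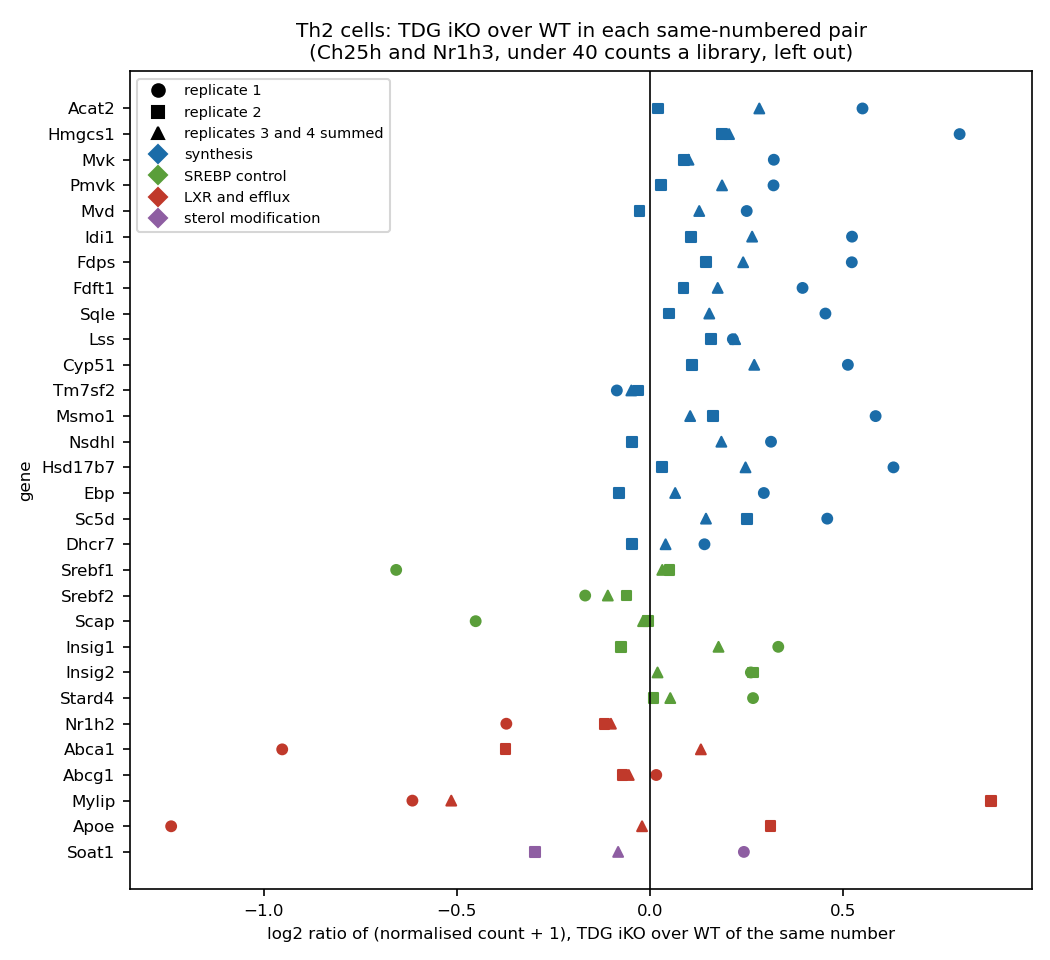
Log2 ratio of the normalised count plus 1, TDG iKO over WT, for each gene in the 3 same-numbered Th2 pairs, with symbols for the pair and colours for the role (Ch25h and Nr1h3 left out for low counts). The synthesis genes sit right of 0 in most pairs, most of all in replicate 1, where the median was 0.43.

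KLA was given to ask how sterol genes change when macrophages are activated. In WT BMDMs of the Tet cohort, the deeper of the cohorts, 10 of the 32 genes passed, 3 rising and 7 falling, where 24.1% of all genes tested passed (13.1% rising, 11.1% falling). Ch25h, Nr1h3 and Abca1 rose, Mylip and Soat1 fell, and 3 of 18 synthesis genes fell (Dhcr7, Msmo1, Sqle) with none rising. The median over the synthesis genes was -0.11 against -0.01 over all genes, and 7 of the 18 lay above 0. The groups did not overlap for 23 of the 32 genes, where 56.8% of all genes did not.

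Nr1h3 had normalised counts of 1577 and 1866 at 0 h and 3691 and 4441 at 6 h (log2 fold change 1.24, SE 0.13, adjusted p = 9.56e-19). Ch25h had 377 and 344 at 0 h and 930.1 and 1328 at 6 h (log2 fold change 1.65, SE 0.18, adjusted p = 3.95e-19). Both were higher at 6 h in either library, 2.36-fold and 3.13-fold. Abca1 rose by less (log2 fold change 0.61, adjusted p = 1.57e-05).

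Dhcr7, the last enzyme of one branch of the pathway, had 227 and 189 at 0 h and 90.7 and 69.5 at 6 h (log2 fold change -1.37, SE 0.29, adjusted p = 2.34e-05). Mylip had 1228 and 1329 at 0 h and 551 and 647 at 6 h (log2 fold change -1.10, SE 0.14, adjusted p = 8.03e-13). Mylip thus moved against Abca1 and Nr1h3, although all 3 are counted here with the LXR genes. Msmo1 had 1053 and 1026 at 0 h and 543 and 548 at 6 h (log2 fold change -0.93, SE 0.15, adjusted p = 4.35e-09). Soat1 had 7121 and 8029 at 0 h and 4497 and 4286 at 6 h (log2 fold change -0.79, SE 0.15, adjusted p = 1.57e-06). In each of these 4 genes both libraries at 6 h were below both at 0 h.

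Smaller falls passed for Sqle (log2 fold change -0.75, adjusted p = 0.00828), Scap (log2 fold change -0.49, adjusted p = 0.0216) and Abcg1 (log2 fold change -0.47, adjusted p = 0.0278), so the 2 cholesterol transporters moved in opposite directions. The call for Scap was lost when any of the 4 WT libraries was left out (adjusted p 0.115 to 0.204). That for Sqle was lost without replicate 2 at 0 h or at 6 h (adjusted p 0.233 and 0.232), and that for Abcg1 without either 0 h library or replicate 1 at 6 h (adjusted p 0.0628 to 0.473, log2 fold change down to -0.21).

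In TET iTKO BMDMs 9 of the 32 genes passed, 4 rising and 5 falling, where 24.4% of all genes passed (12.8% rising, 11.6% falling), and 18 of 32 did not overlap, against 54.5% of all genes. Dhcr7 had 156 and 145 at 0 h and 75.8 and 70.5 at 6 h (log2 fold change -1.04, SE 0.30, adjusted p = 0.00279). Nr1h3 had 2126 and 2397 at 0 h and 3989 and 4493 at 6 h (log2 fold change 0.91, SE 0.13, adjusted p = 2.3e-10). Both went the same way as in WT. Mvd had 53.4 and 77.3 at 0 h and 128 and 117 at 6 h (log2 fold change 0.89, SE 0.35, adjusted p = 0.0448), and with the animal as a block, where 25.9% of all genes passed, its adjusted p was 0.0775 and 8 members passed.

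Soat1 had 7094 and 5701 at 0 h and 4356 and 3136 at 6 h in TET iTKO BMDMs (log2 fold change -0.77, SE 0.15, adjusted p = 2.75e-06). Msmo1 had 843 and 907 at 0 h and 561 and 474 at 6 h (log2 fold change -0.76, SE 0.15, adjusted p = 3.23e-06). Ch25h had 665 and 746 at 0 h and 1066.8 and 1169 at 6 h (log2 fold change 0.66, SE 0.17, adjusted p = 0.000965). None of the 3 overlapped between times. Abca1 rose (log2 fold change 0.51, adjusted p = 0.000391), while Mylip (log2 fold change -0.49, adjusted p = 0.0035) and Abcg1 (log2 fold change -0.47, adjusted p = 0.024) fell. Leaving out replicate 1 at 0 h or replicate 2 at 6 h of the TET iTKO cells lowered the count to 4 in each case (16.8% and 17.4% of all genes passing), with adjusted p of 0.052 to 0.0578 for Ch25h, 0.0559 to 0.0584 for Dhcr7, 0.112 to 0.113 for Mylip and 0.301 to 0.372 for Abcg1. The call for Abca1 was lost without replicate 2 at 0 h or replicate 1 at 6 h (adjusted p 0.052 to 0.0665), and that for Mvd without any 1 of the 8 libraries of the cohort (adjusted p 0.0617 to 0.361).

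In WT BMDMs of the Tdg cohort 5 of the 32 genes passed, where 8.6% of all genes passed (5.29% rising, 3.32% falling). With the replicate number as a block 8 passed, where 15.9% of all genes did, and Nr1h3, Mylip and Dhcr7 were gained. No label ties same-numbered libraries of this cohort, so the values below are from the fit without it. Ch25h had 248 and 209 at 0 h and 974 and 1278 at 6 h, a 4.91-fold rise (log2 fold change 2.30, SE 0.36, adjusted p = 2.78e-08). Abca1 had 2140.2 and 1029 at 0 h and 3479 and 3682 at 6 h (log2 fold change 1.17, SE 0.38, adjusted p = 0.0253). The 2 libraries of Abca1 at 0 h differed by more than the libraries at 6 h did. Soat1 had 3884 and 3325 at 0 h and 1901 and 2011 at 6 h (log2 fold change -0.88, SE 0.25, adjusted p = 0.00729). Msmo1 had 754 and 603 at 0 h and 362 and 351 at 6 h (log2 fold change -0.93, SE 0.31, adjusted p = 0.0377). Ebp had 469 and 803 at 0 h and 329 and 285 at 6 h (log2 fold change -1.05, SE 0.36, adjusted p = 0.0438).

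Only the rise of Ch25h passed with edgeR (5.29% of all genes did), and the other 4 calls were fragile. Without replicate 1 or replicate 2 of the WT cells at 6 h, 1 gene passed, Ch25h (5.74% and 3.2% of all genes did). The other adjusted p were 0.168 to 0.354 for Abca1, 0.187 to 0.203 for Soat1, 0.242 to 0.471 for Msmo1 and 0.183 to 0.55 for Ebp. Without the shallow replicate 2 at 0 h, Abca1 (adjusted p = 0.121) and Ebp (adjusted p = 0.349, log2 fold change -0.61) did not pass. Without replicate 1 at 0 h, 8 of the 32 genes passed, where 19.7% of all genes did, and Msmo1 did not (adjusted p = 0.128). Without either TDG iKO library at 0 h, 3 genes passed (7.87% and 7.71% of all genes did), Msmo1 (adjusted p 0.0785 to 0.0874) and Ebp (adjusted p 0.0744 to 0.0772) being lost, and Ebp was also lost without either TDG iKO library at 6 h (adjusted p 0.0736 to 0.0742).

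In TDG iKO BMDMs 3 of the 32 genes passed, where 7.08% of all genes passed (4.27% rising, 2.81% falling). With the replicate number as a block 7 passed, where 12.1% of all genes did, and Nr1h3, Mylip, Sqle and Msmo1 were gained. Nr1h3 had a log2 fold change of 1.24 (adjusted p = 0.0632 without the block and 0.000257 with it, DESeq2). Ch25h had 238 and 183 at 0 h and 962 and 1569.6 at 6 h, a 6.03-fold rise (log2 fold change 2.59, SE 0.36, adjusted p = 7.48e-11). Soat1 had 3349 and 3859 at 0 h and 2126 and 1918 at 6 h (log2 fold change -0.83, SE 0.25, adjusted p = 0.0147). Dhcr7 had 169.7 and 134 at 0 h and 64.4 and 31.7 at 6 h (log2 fold change -1.67, SE 0.52, adjusted p = 0.0238). In all 3 genes the times did not overlap. Only Ch25h passed without any 1 of TDG iKO replicate 1 or 2 at 0 h, TDG iKO replicate 2 at 6 h, or either WT library at 6 h (4.26%, 4.46%, 3.43%, 5.98% and 6.21% of all genes passing in turn), where Soat1 had adjusted p of 0.069 to 0.393 and Dhcr7 of 0.055 to 0.539. Without either WT library at 0 h, 5 genes passed, where 9.22% and 9.51% of all genes did. Soat1 was also lost without TDG iKO replicate 1 at 6 h (adjusted p = 0.106). The groups did not overlap for 16 of the 32 genes in WT and 11 in TDG iKO, against 43.6% and 41.1% of all genes.

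Across the 4 sets of macrophages, Ch25h rose and Soat1 fell in each (the plot of KLA changes by set). With edgeR the fall of Soat1 did not pass in WT (adjusted p = 0.0922) or TDG iKO (adjusted p = 0.119) of the Tdg cohort. The arms of a cohort share no libraries, but they were tested in the same fit with a shared estimate of the spread, so their calls are not independent. The cohorts differ in depth and experiment. In the same libraries, of 5 KLA response genes listed as a check 4 rose in both arms of the Tdg cohort and all 5 in both arms of the Tet cohort. Of 12 fatty acid synthesis genes, 6 passed in WT of the Tet cohort, with Me1, the cytosolic malic enzyme, rising (1.86) and 5 falling, led by Elovl6 (-2.18), Lpin1 (-1.78) and Scd2 (-1.31). In TET iTKO cells 6 passed, with Me1 at 1.47 and 5 falling, among them Elovl6 at -1.74. Fads1, a fatty acid desaturase, fell in all 4 sets (-1.33 in WT and -1.67 in TDG iKO of the Tdg cohort, -1.12 in WT and -1.36 in TET iTKO of the Tet cohort), and Me1 rose in TDG iKO (1.62) and had 1.05 in WT of the Tdg cohort (adjusted p = 0.161).

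Of 21 genes of other sterol handling, 8 passed in WT of the Tet cohort (1 rising, 7 falling) and 7 in TET iTKO (all falling). Nceh1, which hydrolyses stored cholesteryl esters, fell in all 4 sets, by 1.78 in WT and 1.70 in TET iTKO of the Tet cohort and by 1.93 in WT and 1.97 in TDG iKO of the Tdg cohort on the log2 scale. Lipa, the lysosomal lipase, fell in TDG iKO (-1.05), in WT of the Tet cohort (-0.94) and in TET iTKO (-0.73), and had -0.90 in WT of the Tdg cohort (adjusted p = 0.0678). Cyp27a1, a sterol hydroxylase, fell in WT of the Tdg cohort (-2.06), in WT of the Tet cohort (-0.84) and in TET iTKO (-1.27), and had -0.97 in TDG iKO (adjusted p = 0.392). With the animal as a block its adjusted p in WT of the Tet cohort was 0.0711.

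**Figure D4:**
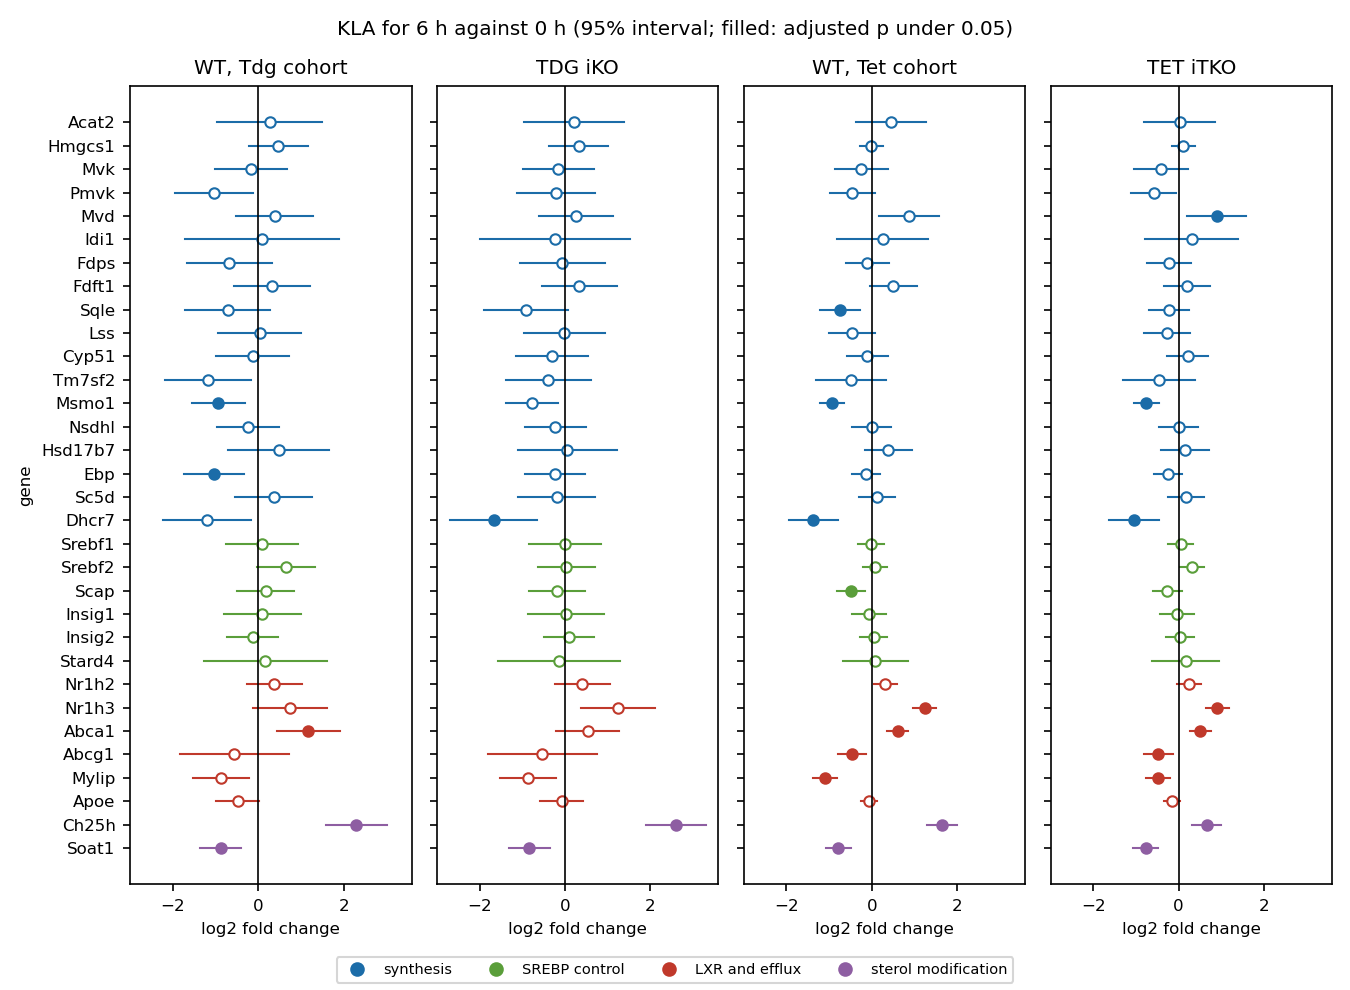
Log2 fold change with its 95% interval (DESeq2) of the 32 genes between 6 h of KLA and 0 h, in WT and TDG iKO of the Tdg cohort and in WT and TET iTKO of the Tet cohort (n = 2 per group and time), coloured by role, with filled points for an adjusted p below 0.05. Ch25h lies right of 0 in all 4 panels, from 0.66 to 2.59, and Soat1 left of 0 in all 4.

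TET iTKO BMDMs were compared with WT of the same cohort to ask whether loss of the TET enzymes altered the sterol genes. At 0 h 3 of the 32 genes passed, where 7.5% of all genes passed (4.38% higher, 3.12% lower). Ch25h and Nr1h3 were higher and Sqle was lower in TET iTKO. Of the 18 synthesis genes, 15 had a fold change below 0, with a median of -0.19 against 0.01 over all genes, and 1 passed. Of the 6 LXR and efflux genes, 5 were above 0, with a median of 0.16. The groups did not overlap for 20 of the 32 genes, where 48.3% of all genes did not.

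Ch25h had normalised counts of 377 and 344 in WT and 665 and 746 in TET iTKO at 0 h. Both TET iTKO libraries were above both WT libraries, 1.96-fold (log2 fold change 0.97, SE 0.18, adjusted p = 3.96e-06), and this call held in all 13 alternatives. Nr1h3 had 1577 and 1866 in WT and 2126 and 2397 in TET iTKO (log2 fold change 0.39, SE 0.14, adjusted p = 0.0485). Sqle had 311 and 371 in WT and 204 and 191 in TET iTKO, 1.73-fold lower (log2 fold change -0.79, SE 0.24, adjusted p = 0.0156). Neither overlapped, but both calls were lost when any 1 of the 4 libraries at 0 h was left out (adjusted p 0.0618 to 0.704 for Nr1h3 and 0.0852 to 0.373 for Sqle), which left 1 gene, Ch25h (3.6% and 3.96% of all genes passed without a WT library, 6.5% and 2.4% without a TET iTKO library). The call for Nr1h3 was also lost without either TET iTKO library at 6 h (adjusted p 0.057 to 0.0577) and with TMM factors (adjusted p = 0.0519).

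At 6 h 1 of the 32 genes passed, where 6.58% of all genes passed (3.24% higher, 3.34% lower). Mylip had 551 and 647 in WT and 1028 and 899.8 in TET iTKO. Both TET iTKO libraries were above both WT libraries, 1.61-fold (log2 fold change 0.69, SE 0.15, adjusted p = 0.000157), and this call held in all 13 alternatives. With edgeR 3 members passed, where 9.36% of all genes did. Beside Mylip these were Abcg1 (log2 fold change 0.36, adjusted p = 0.0152 with edgeR and 0.233 with DESeq2), whose groups overlapped, and Apoe (log2 fold change -0.22, adjusted p = 0.0472 and 0.177). Ch25h, higher in TET iTKO before stimulation, had 930.1 and 1328 in WT and 1066.8 and 1169 in TET iTKO at 6 h, with the TET iTKO libraries between the WT libraries (log2 fold change -0.01, adjusted p = 0.99, 95% interval -0.35 to 0.32). Of the synthesis genes, 16 of 18 were below 0 with a median of -0.18 (0.00 over all genes) and none passed with DESeq2 or edgeR, while 1 had an unadjusted p below 0.05. The groups did not overlap for 11 of the 32 genes, against 42.6% of all genes. A second member passed without replicate 1 of TET iTKO (Soat1, lower) or replicate 2 of WT at 6 h (Abcg1, higher), where 5.94% and 5% of all genes did.

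In bulk RNA, fewer cells of a type and less RNA per cell cannot be told apart, and markers of other cells moved with the genotype. Of 11 neutrophil and progenitor markers found, 4 were higher in TET iTKO at 0 h and 5 at 6 h, and their summed level was 135 to 207 TPM in WT and 330 to 620.1 TPM in TET iTKO at 0 h. The 4 B cell markers summed to 1.76 to 2.05 TPM in WT and 7.81 to 25.7 TPM in TET iTKO at 0 h (3 of 4 higher). The 7 macrophage markers summed to 37788 to 39118 TPM in WT and 31121 to 32064 TPM in TET iTKO at 0 h, with 1 higher and 3 lower. At 0 h the 5 KLA response genes summed to 1892 to 2528 TPM in WT and 3666 to 3723 TPM in TET iTKO, 2 of them higher (Il1b and Ptgs2). The part of any of these in the values of Ch25h, Nr1h3, Sqle and Mylip was not tested.

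Of the 21 genes of other sterol handling, 4 were lower in TET iTKO at 0 h: Rxra, the partner receptor of LXR (log2 fold change -0.86, adjusted p = 9.91e-05), the phospholipid transfer protein Pltp (-0.53), Lipa (-0.50) and Cd36 (-0.50). At 6 h 6 were lower, led by Rxra (log2 fold change -0.98, adjusted p = 1.08e-05), the lipoprotein receptor Lrp1 (-0.58), the sterol carrier Npc2 (-0.57) and Cd36 (-0.51). None of these 21 genes was higher. None of the 12 fatty acid synthesis genes passed at either time with DESeq2, 2 at 0 h and 3 at 6 h having an unadjusted p below 0.05, and edgeR called 1 and 2.

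**Figure D5:**
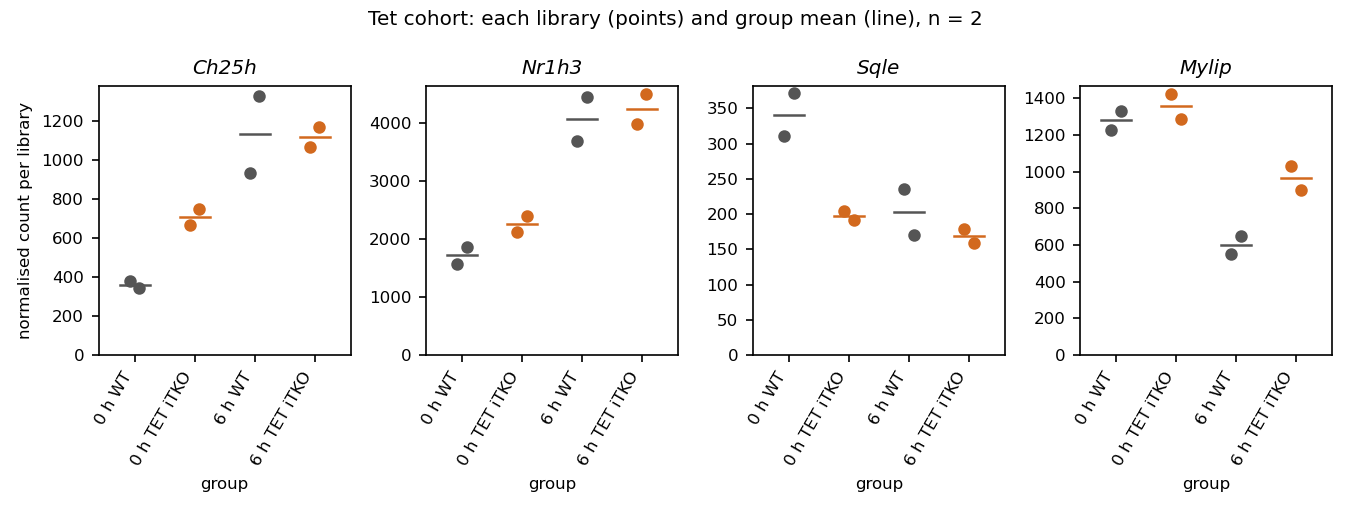
Normalised count of the genes that differed by genotype in the Tet cohort, for each library (points) and as group means (lines), in WT and TET iTKO at 0 h and 6 h (n = 2 each). The WT and TET iTKO points of Ch25h are apart at 0 h and together at 6 h, and those of Mylip are close at 0 h and apart at 6 h.

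The change of the KLA response by TET loss was tested as an interaction over the same 8 libraries as the comparisons above, in which 0.426% of 12200 genes passed. Of the 32 genes 1 passed. Ch25h rose by 1.65 in WT and by 0.66 in TET iTKO on the log2 scale, a difference of -0.98 (SE 0.25, adjusted p = 0.0235). Its level started higher and ended at a like level, as given above, so the smaller rise and the higher start are the same measurement. The call was lost when any 1 library other than WT replicate 1 at 6 h was left out (adjusted p 0.0731 to 0.522). Mylip fell by 1.10 in WT and by 0.49 in TET iTKO, a difference of 0.60 (SE 0.20) that did not pass (adjusted p = 0.29). With the animal as a block, 2 genes passed, Ch25h and Mylip (adjusted p = 0.0343 for Mylip), where 2.48% of all genes did, and Mylip also passed with edgeR, where 1.8% did (adjusted p = 0.0147). The synthesis genes had a median difference of 0.03, and none passed.

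TDG iKO BMDMs were compared with WT of the Tdg cohort for the same question about TDG. At 0 h none of the 32 genes passed with DESeq2 or edgeR (0% of 15026 genes, with 265 genes and no member at an unadjusted p below 0.05). The synthesis genes had a median of 0.01 against 0.04 over all genes, 10 above and 8 below 0, and their 95% intervals together spanned -1.74 to 2.40. The groups did not overlap for 5 of the 32 genes, where 21.7% of all genes did not. Without WT replicate 1, 2 members passed, 1 in each direction, where 11.3% of all genes did, the comparison then resting on the shallow replicate 2 alone for WT.

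At 6 h none passed with either tool (0% of 15026 genes, with 34 genes and no member at an unadjusted p below 0.05). The synthesis genes had a median of -0.10 against 0 over all genes, and their intervals spanned -1.48 to 2.06. Ch25h and Mylip, which differed by TET loss, did not pass here. Ch25h had 248 and 209 in WT and 238 and 183 in TDG iKO at 0 h (log2 fold change -0.13, 95% interval -0.85 to 0.59). Mylip had 221 and 239.8 in WT and 222 and 301 in TDG iKO at 6 h (log2 fold change 0.19, 95% interval -0.48 to 0.85). The groups did not overlap for 3 of the 32 genes at 6 h, where 16.7% of all genes did not. Neutrophil and progenitor markers ranged widely among these libraries, from 109 to 1827 TPM in sum, with replicate 1 the higher in every group. At 0 h the sums were 148 to 604 TPM in WT and 109 to 1827 TPM in TDG iKO. At 6 h they were 115 to 752 TPM and 112 to 1738 TPM. The median log2 fold change of the 11 markers, TDG iKO over WT, was 1.53 at 0 h and 1.16 at 6 h, and none passed. The part of these markers in the values above was not tested. In the interaction of TDG loss with KLA no member passed with DESeq2 or edgeR (0%, with 37 genes at an unadjusted p below 0.05), and the difference for Ch25h was 0.30 (95% interval -0.70 to 1.30). Without WT replicate 1 at 0 h 1 member passed in that test, where 2.9% of all genes did.

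The effect of TET loss was set against that of TDG loss directly, each against its own WT. No member passed at 0 h (0.355% of 10992 genes did) or at 6 h (0.0765% of 13075 genes did), with DESeq2 or with edgeR (0.165% and 0.00635% in turn), and 1 member had an unadjusted p below 0.05 at 0 h and none at 6 h. For Ch25h at 0 h the difference of effects was 1.11 (95% interval 0.31 to 1.90, adjusted p = 0.437). For Mylip at 6 h it was 0.51 (95% interval -0.10 to 1.12). The effects of TET and TDG loss on these genes were thus not shown to differ. Without WT replicate 1 of the Tdg cohort at 0 h, 5 of the 32 members passed at that time, where 20.8% of all genes did.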

How the data were processed

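The authors aligned paired-end reads of 50 bases from directional, poly(A)-selected libraries to the mouse build mm9 with HISAT2 and counted them per gene with HTSeq; the deposited values were raw counts per gene symbol with no normalization. Tool versions, gene annotation and strand setting were not given in the sources used here, apart from DESeq2 1.30.0 for the authors' own tests. HTSeq does not assign reads that align to several places, and overlapping genes cannot be told apart where strand was not used. Labels gave every library a group, and 1 file per library was used.

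Counts were tested with DESeq2 1.42.0 under R 4.3.3 (Wald test, median-of-ratios scaling, Benjamini-Hochberg adjustment over all genes tested, threshold 0.05). Each BMDM cohort, the Th2 libraries, all 16 BMDM libraries (TET minus TDG effect) and the WT Th2 and 0 h BMDM libraries were fitted apart, so normalised counts compare within a fit only. Fold changes were not shrunken, and 95% intervals are Wald intervals. TPM were computed from the counts with the longest protein-coding transcript of GENCODE vM1, which lacks Hmgcs1. The members, lists and tests were chosen with earlier results of these data known. All 32 members could be named, values in every library were given for those passing (the 6 of largest change where more passed), and at most 4 genes of each other list were named. Alternatives were the quasi-likelihood test of edgeR 4.0.16, TMM factors, a filter of 10 counts in 2 libraries, a replicate block, only the groups compared, Th2 replicates kept apart or in part, and leaving out each replicate. The scripts were tested on simulated data.

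Same-numbered Th2 libraries deviated together across genes (r = 0.510, 0.733 and 0.919), so the block is given there. Same-numbered BMDM libraries of the Tdg cohort did so too (r = 0.313 to 0.823). No label tied them, so the fit without a block stayed the main one there. In the Tet cohort the 0 h and 6 h libraries of a replicate shared a number in their names, taken as that of the animal (r = 0.505 in WT and 0.391 in TET iTKO), so the animal was a block for KLA.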

Additional observations from a re-analysis of the deposited data

Results flagged for a closer look

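The rise of Ch25h under KLA differed between genotypes of the Tet cohort by a test of the difference itself. The log2 rise was 1.65 in WT and 0.66 in TET iTKO, a difference of -0.98 (SE 0.25, adjusted p = 0.0235, DESeq2 interaction). The 2 WT libraries at 0 h had 377 and 344 normalised counts and the 2 TET iTKO libraries 665 and 746, and at 6 h the genotypes overlapped. The call was lost in 7 of 13 alternatives, all of which left out 1 library, with the direction kept in each.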

How the results depend on the processing

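Of 61 calls on members, 42 held in every alternative and none reversed. The comparison of WT Th2 cells with WT BMDMs gave 29 of the 61, and there only the call for Msmo1 was lost in any alternative. All other lost calls lay in the comparisons among macrophages, so the pooled count overstates how stable those were. Of 762 alternative values of these calls, 672 stayed below the threshold and 90 did not, all in the same direction. Of 792 alternative medians of the gene groups, 729 moved by less than the spread between replicates. The number of members passing moved by more than 1.5 times in these cases. With edgeR it was 3 for TET iTKO at 6 h (1 with DESeq2), where 9.36% of all genes passed, 1 for KLA in WT of the Tdg cohort (5) and 2 for the change of the KLA response by TET iTKO (1). With only the 2 groups compared it was 1 for KLA in WT of the Tdg cohort. With the replicate block it was 8 for KLA in WT of the Tdg cohort (15.9% of all genes passing), or 7 (16.5%) where each genotype had blocks of its own, and 7 for KLA in TDG iKO (12.1%), or 7 (11.3%) nested. The genes gained were Nr1h3, Mylip and, without nesting, Dhcr7 in WT, and Nr1h3, Mylip, Sqle and Msmo1 in TDG iKO. The nested block gave 2 for the change of the KLA response by TET iTKO. In the Tdg cohort the libraries share only a number (r = 0.361 in WT and 0.823 in TDG iKO between times, 0.313 and 0.822 between genotypes). No label ties them, so the fit without a block stayed the main one there. In Th2 cells the replicate block left 0 members, with replicates 3 and 4 summed or, a setting chosen after seeing the data, kept apart. Blocks changed no other member call beyond those given with the results. In the fatty acid and other sterol lists they gained 11 calls and lost 1 (Cyp27a1 for KLA in WT of the Tet cohort). Leaving out each replicate gave 1 to 3 members for TET iTKO at 0 h, 1 to 2 at 6 h, 0 to 2 for TDG iKO macrophages at 0 h, 0 at 6 h and 0 for Th2 cells. For KLA it gave 1 to 8 in WT of the Tdg cohort, 1 to 5 in TDG iKO, 7 to 10 in WT of the Tet cohort and 4 to 8 in TET iTKO. For the change of the KLA response it gave 0 to 1 for TET iTKO and 0 to 1 for TDG iKO, for the TET minus TDG effect 0 to 5 at 0 h and 0 at 6 h, and for WT Th2 against BMDMs 28 to 30. With a replicate left out, a lone library is assumed to vary like the other groups. The cause of these moves was not tested. With 2 libraries per macrophage group, and 4982950 counts in the shallowest, the intervals of low genes were wide, up to a log2 change of 2.40 among the synthesis genes for TDG iKO at 0 h.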
